A study of Mus musculus with 2 samples.

Results

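Collagen genes were taken as all symbols of the form Col, a type number, a and a chain number in the gene list of both libraries, with at least 10 UMIs (unique molecular identifiers, each standing for 1 captured transcript) over both libraries. Of 44 such symbols among 55450 listed genes, 38 met the minimum. The other 6 were Col25a1 with 8 UMIs, Col2a1 and Col26a1 with 6 each, Col24a1 with 3, and Col19a1 and Col6a4 with 0. The lowest members were Col6a6 with 11 UMIs and Col17a1 with 13. The members were 9 fibrillar, 8 fibril-associated, 6 basement membrane network, 5 beaded filament, 3 short-chain network, 3 transmembrane and 2 multiplexin collagens, together with Col7a1 of anchoring fibrils and Col28a1.

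The study set 2 mouse models of hepatocellular carcinoma side by side, mainly for their immune cells, and measured each in 1 single-cell library made with the 10x Chromium 3′ kit from C57BL/6 tumour tissue. AKT1.MYC tumours, called subtype F3, followed hydrodynamic tail vein injection of plasmids for Akt1 (10 µg per mouse), human c-Myc (10 µg) and Sleeping Beauty transposase (5 µg). NRAS.MYC.ND tumours, called subtype F1, followed injection of plasmids for human N-Ras (19 µg), human c-Myc (1 µg) and the transposase (2 µg). Both were resected 14 weeks after injection, digested and enriched for live cells, so that c-Myc, the transposase and the injection itself are shared, while the doses of the shared plasmids differ between the models. The promoters of the constructs, the number and age of the animals behind a library and the meaning of ND are not given in the sources used here.

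Collagens are trimers of chains wound into a triple helix, and are secreted to form fibrils, filaments or networks in the matrix. Fibrillar types I, III and V build the scar of a fibrotic liver and come mainly from activated stellate cells, fibroblasts and other mesenchymal cells. Type IV forms the network of basement membranes around vessels and ducts, types XV and XVIII are attached to those membranes, and type VI forms beaded filaments beside the fibrils.

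After filtering, 9398 AKT1.MYC cells with a median of 1987 UMIs and 5634 NRAS.MYC.ND cells with a median of 4240 UMIs were kept, out of 10766 AKT1.MYC and 6312 NRAS.MYC.ND barcodes. The libraries shared 17 barcodes. Collagen made up 0.361% of the kept UMIs in AKT1.MYC (217846 UMIs) and 0.0892% in NRAS.MYC.ND (33892 UMIs). Cells were clustered without the collagen genes and clusters were named from marker lists. The mesenchymal cluster carried 10 of 12 fibroblast markers, the sinusoidal cluster 10 of 10 sinusoidal endothelial markers, the vascular clusters 13 and 12 of 13 vascular endothelial markers, and the mesothelial cluster 7 of 7. With 1 library per model there is no replicate check and no test: all levels are CPM, the UMIs of a gene per 1000000 summed UMIs of a class, and log2 ratios have AKT1.MYC on top. All 95% intervals (exact Poisson for levels, exact conditional binomial for ratios, exact binomial for shares) cover counting error only. A collagen was called higher when its CPM differed 2-fold or more and it had at least 10 UMIs over both libraries in the class.

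The promoters of 4 collagens with many UMIs are shown because 2 of these genes sit head to head. Col4a1 (chromosome 8, 11198423 to 11312826, minus strand, GRCm38.p6, GENCODE vM21) and Col4a2 (11312805 to 11449287, plus strand) overlap at their starts, and their RefSeq windows, 250 bases before to 50 after each start, share 78 bases. Capitals mark CCAAT on either strand. The motif stood in 11 of 34 windows of the 31 members found in the RefSeq table (32.4%), against 12289 of 32851 windows of all genes (37.4%). GGGCGG, the core of a GC box, stood in 21 of the 34 windows (61.8%), against 35.7% of all windows. Both strands were searched, and matches of the 2 motifs can share bases. The Col4a1, Col4a2 and Col1a2 windows each hold CCAAT, and the Col3a1 window, shown beside them, holds neither motif. Members with no window in the table were Col1a1, Col4a3, Col5a2, Col9a3, Col12a1, Col14a1 and Col22a1.
Col4a1 promoter, chr8:11312777-11313076, minus strand: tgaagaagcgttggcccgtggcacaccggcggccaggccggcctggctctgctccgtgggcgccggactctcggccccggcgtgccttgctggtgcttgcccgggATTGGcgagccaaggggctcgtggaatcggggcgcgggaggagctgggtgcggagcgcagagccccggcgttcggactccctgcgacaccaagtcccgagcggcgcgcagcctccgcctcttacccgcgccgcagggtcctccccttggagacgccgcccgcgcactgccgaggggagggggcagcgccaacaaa
Col4a2 promoter, chr8:11312555-11312854, plus strand: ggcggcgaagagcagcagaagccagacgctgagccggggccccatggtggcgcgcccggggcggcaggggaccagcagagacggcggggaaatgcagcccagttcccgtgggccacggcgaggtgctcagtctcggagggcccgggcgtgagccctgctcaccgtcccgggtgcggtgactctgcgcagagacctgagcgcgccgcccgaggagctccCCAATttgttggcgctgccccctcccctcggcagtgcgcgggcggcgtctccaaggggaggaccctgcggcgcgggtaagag
Col1a2 promoter, chr6:4505368-4505667, plus strand: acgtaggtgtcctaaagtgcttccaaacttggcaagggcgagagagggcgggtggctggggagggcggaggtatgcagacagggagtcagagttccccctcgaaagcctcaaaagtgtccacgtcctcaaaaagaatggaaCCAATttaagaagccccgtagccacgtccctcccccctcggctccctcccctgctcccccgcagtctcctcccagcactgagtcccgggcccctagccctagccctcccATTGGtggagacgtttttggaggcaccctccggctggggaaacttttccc
Col3a1 promoter, chr1:45311288-45311587, plus strand: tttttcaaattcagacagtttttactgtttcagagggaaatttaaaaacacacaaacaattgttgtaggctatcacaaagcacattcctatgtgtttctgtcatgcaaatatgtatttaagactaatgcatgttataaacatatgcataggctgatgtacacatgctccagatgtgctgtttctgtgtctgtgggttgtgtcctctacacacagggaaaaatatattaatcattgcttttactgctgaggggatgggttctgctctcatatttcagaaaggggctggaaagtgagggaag

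Mesenchymal cells held 73.1% (95% interval 73.0 to 73.3) of the collagen UMIs of AKT1.MYC, against 11.7% (11.4 to 12.1) of those of NRAS.MYC.ND. Vascular and sinusoidal endothelial cells together held 6.77% in AKT1.MYC, against 71.4% in NRAS.MYC.ND. These shares follow both the level per class and the cells captured: mesenchymal cells were 3.35% of kept cells in AKT1.MYC, against 0.586% in NRAS.MYC.ND, and endothelial cells 4.77% in AKT1.MYC, against 15.2% in NRAS.MYC.ND. The makeup of a library depends on digestion and live-cell enrichment, and their part in these shares was not tested. With cells assigned by per-cell marker gates in place of clusters, which left 5805 AKT1.MYC and 2633 NRAS.MYC.ND cells unassigned, the endothelial share was 5.98% in AKT1.MYC, against 17.0% in NRAS.MYC.ND. A further 8.32% of the AKT1.MYC collagen UMIs lay in clusters without a name, of which a cluster of 491 AKT1.MYC and 18 NRAS.MYC.ND cells, with a median of 944 UMIs, stood at 15877 CPM collagen in AKT1.MYC. Its leading genes were Adamtsl2, Adamts2, Col1a1, Ndufa4l2 and Pdgfrb, and with it added the mesenchymal share in AKT1.MYC was 79.5%.

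**Figure D1:**
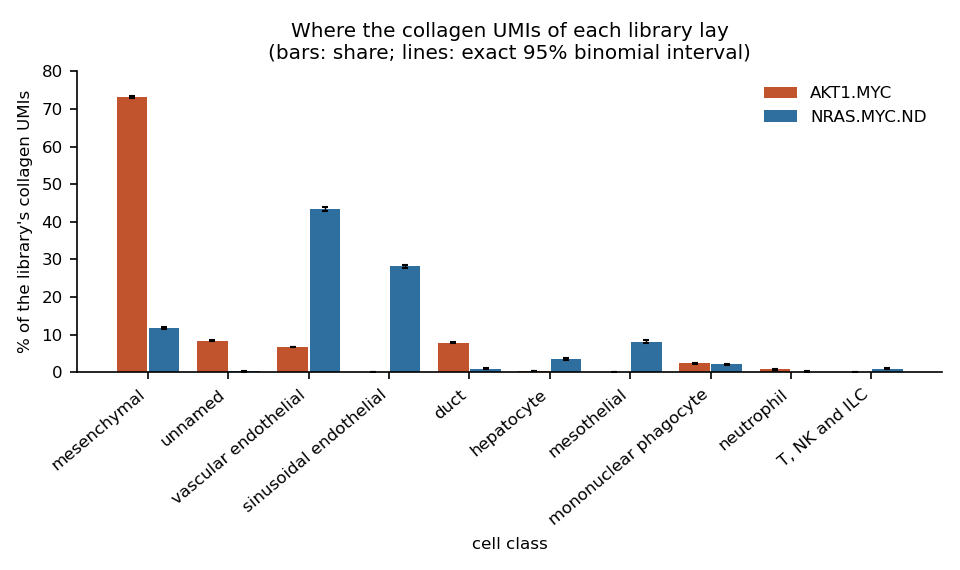
Percent of each library's collagen UMIs (vertical axis) found in each cell class (horizontal axis); AKT1.MYC bars stand left of NRAS.MYC.ND bars and lines are exact 95% binomial intervals. Mesenchymal cells hold 73.1% in AKT1.MYC, against 11.7% in NRAS.MYC.ND, and vascular endothelial cells 6.67% in AKT1.MYC, against 43.3% in NRAS.MYC.ND.

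The free RNA of each library was read from T, NK and innate lymphoid cells, which are not a known source of fibrillar collagen. Their summed collagen was 495 CPM (432 to 564) in AKT1.MYC and 61.6 CPM (55.0 to 68.7) in NRAS.MYC.ND, an 8.04-fold difference. Low collagen levels in other classes are set beside these. Other blood cell classes of AKT1.MYC differed from that level. Conventional dendritic cells had 341 CPM, B and plasma cells 383 CPM, mononuclear phagocytes 570 CPM, neutrophils 857 CPM and erythroid cells 1044 CPM. In NRAS.MYC.ND the same classes lay between 45.2 and 86.5 CPM. A free RNA level read from another class would therefore differ. Col3a1 stood at 203 CPM in AKT1.MYC neutrophils, and at 152 CPM in AKT1.MYC and 4.63 CPM in NRAS.MYC.ND T, NK and innate lymphoid cells. With each cell thinned to 1000 UMIs, 19.2% of these cells in AKT1.MYC (24 of 125, with 13 shallower cells left out), against 0.543% in NRAS.MYC.ND (8 of 1472, with 66 left out), had a Col3a1 UMI; without thinning the share was 39.1% in AKT1.MYC at a median of 2802 UMIs, against 1.56% in NRAS.MYC.ND at 2795 UMIs.

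**Figure D2:**
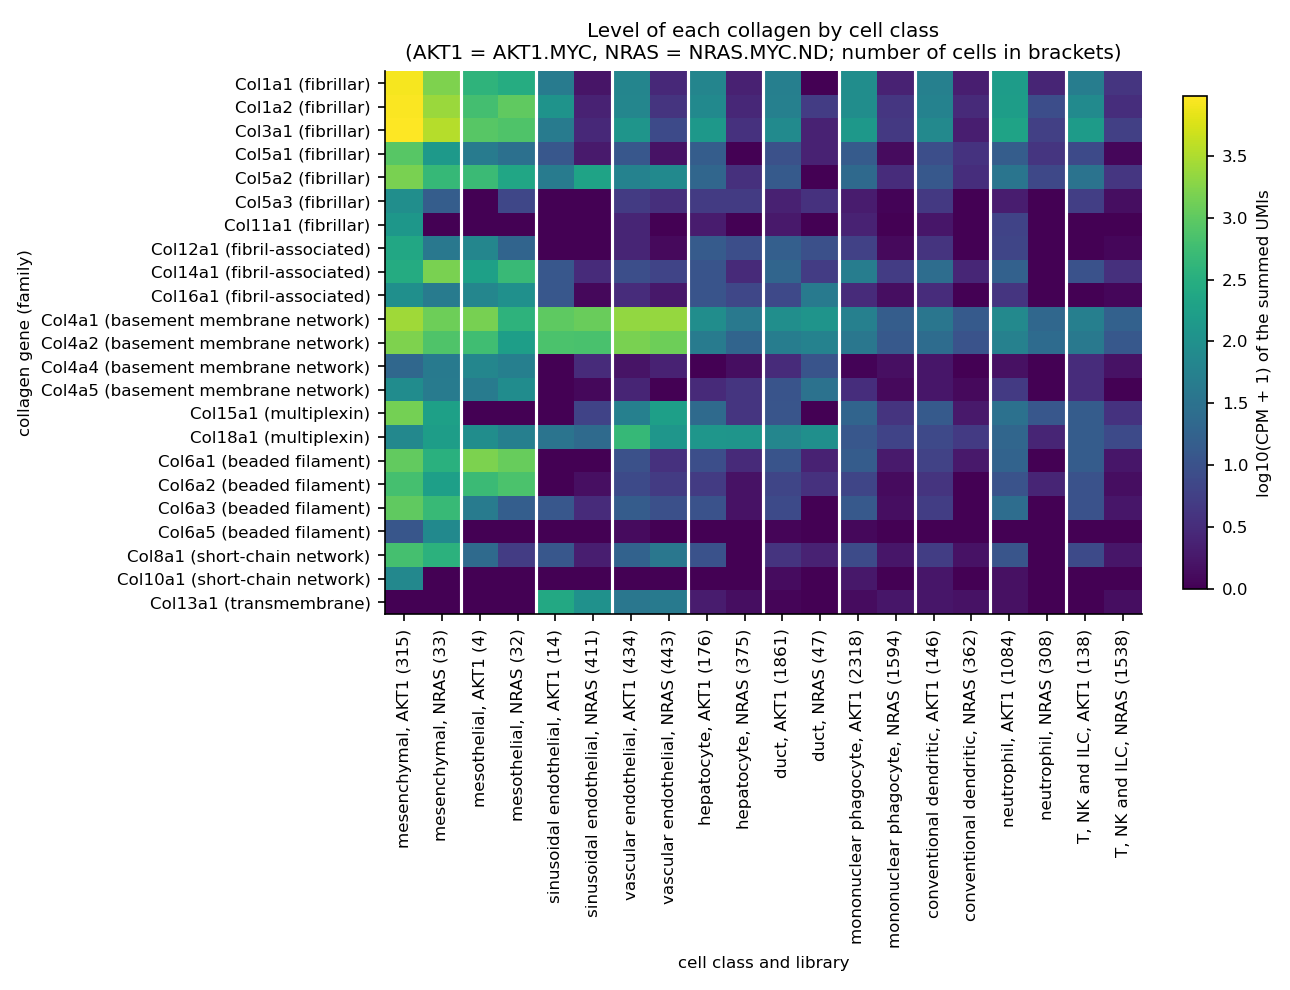
Colour gives log10(CPM + 1) of the 23 collagens with at least 50 CPM in a class and 30 UMIs (rows, with their family) in 10 cell classes (columns, AKT1.MYC left of NRAS.MYC.ND in each pair, cells in brackets). Fibrillar collagens are brightest in mesenchymal cells, Col4a1 and Col4a2 also in both endothelial classes, and Col13a1 reaches 252 CPM in AKT1.MYC and 101 CPM in NRAS.MYC.ND sinusoidal endothelial cells.

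In mesenchymal cells, which include fibroblasts, stellate cells, pericytes and smooth muscle cells, summed collagen was 39656 CPM (39462 to 39851) in 315 AKT1.MYC cells and 13614 CPM (13194 to 14043) in 33 NRAS.MYC.ND cells, a log2 ratio of 1.54. The 33 cells are below the 50 per library set for a comparison, so this comparison was added after the cell numbers were seen. Of 29 collagens with enough UMIs, 17 were at least 2-fold higher in AKT1.MYC, where 9.18% of 12230 genes were, and 5 had NRAS.MYC.ND higher by 2-fold or more, where 16.3% of genes were. The median log2 ratio of the genes seen in both libraries was -0.18, and with every ratio taken relative to it the counts were 19 higher in AKT1.MYC, beside 12.4% of genes, and 3 higher in NRAS.MYC.ND, beside 13.0%. The median log2 ratio of the 29 was 1.08, beside -0.16 over all genes of the class. In single cells, collagen took a median of 3.47% of UMIs in AKT1.MYC (0.222 to 17.8) and 1.08% in NRAS.MYC.ND (0.129 to 2.55), so the ranges overlap.

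The fibrillar collagens carried most of that difference. Col1a1, which with Col1a2 forms type I collagen, the main fibre of scar, stood at 8351 CPM (8262 to 8441) in AKT1.MYC and 1614 CPM (1471 to 1766) in NRAS.MYC.ND, a log2 ratio of 2.37 (2.24 to 2.51). Col1a2 stood at 9087 CPM in AKT1.MYC and 2417 CPM in NRAS.MYC.ND (log2 1.91, 1.80 to 2.02). Col3a1, the chain of type III collagen, stood at 9571 CPM in AKT1.MYC and 3429 CPM in NRAS.MYC.ND (log2 1.48, 1.39 to 1.57). Over the whole class all 3 counting intervals lie above 1, and the type I chains had larger ratios than Col3a1, with intervals that do not overlap that of Col3a1. In the sub-cluster shared by both libraries, described below, the intervals of Col1a2 (log2 1.02, 0.88 to 1.16) and Col3a1 (log2 0.84, 0.71 to 0.96) overlap.

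The minor fibrillar collagens co-assemble with type I and set fibril width. Col5a1 stood at 870 CPM in AKT1.MYC and 140 CPM in NRAS.MYC.ND (log2 2.63, 2.19 to 3.11). Col5a2 stood at 1519 CPM in AKT1.MYC and 458 CPM in NRAS.MYC.ND (log2 1.73, 1.48 to 1.99), and Col5a3 at 92.3 CPM in AKT1.MYC and 13.7 CPM in NRAS.MYC.ND (log2 2.76, 1.39 to 4.64, with 4 UMIs in NRAS.MYC.ND). Col11a1, a chain of cartilage fibrils that also marks activated tumour fibroblasts, had 510 UMIs (127 CPM) in AKT1.MYC, against 0 in NRAS.MYC.ND. Against the 3 counts that a 0 allows (10.3 CPM), Col11a1 was at least 12.4-fold higher in AKT1.MYC.

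The short-chain and anchoring collagens were uneven. Col10a1, best known from growth plate cartilage, had 289 UMIs (71.9 CPM) in AKT1.MYC, against 0 in NRAS.MYC.ND, at least 7.01-fold higher in AKT1.MYC. It was highest in a sub-cluster with 10 pericyte and 8 smooth muscle markers 2-fold above the other kept cells, at 565 CPM, against 0 to 3.09 CPM in 5 of the other sub-clusters and 142 CPM in the remaining one, all read from AKT1.MYC cells. Under per-cell gates Col10a1 was at 286 CPM in smooth muscle-gated, 50.6 CPM in stellate-gated, 16.0 CPM in pericyte-gated and 1.12 CPM in fibroblast-gated AKT1.MYC cells. Col10a1 lies opposite Nt5dc1 on chromosome 10, so reads of the 2 genes can be told apart only by strand. Col8a1, a short-chain collagen of vessel walls and scar, stood at 651 CPM in AKT1.MYC and 366 CPM in NRAS.MYC.ND (log2 0.83, 0.55 to 1.12), below 2-fold. Col7a1, which anchors epithelia to the stroma beneath, had 186 UMIs (46.3 CPM) in AKT1.MYC and 1 UMI (3.42 CPM) in NRAS.MYC.ND (log2 3.76, 1.26 to 9.07).

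The main type IV chains, Col4a1 and Col4a2, lay just past 2-fold. Col4a1 stood at 2636 CPM in AKT1.MYC and 1262 CPM in NRAS.MYC.ND (log2 1.06, 0.91 to 1.22), and Col4a2 at 1626 CPM in AKT1.MYC and 776 CPM in NRAS.MYC.ND (log2 1.07, 0.88 to 1.26). Col4a5, a chain of the more restricted type IV trimers, was at 85.4 CPM in AKT1.MYC and 44.5 CPM in NRAS.MYC.ND (log2 0.94). Col15a1, a multiplexin of the vessel and muscle basement membrane zone, was at 1428 CPM in AKT1.MYC and 181 CPM in NRAS.MYC.ND (log2 2.98, 2.59 to 3.40). Of the type VI chains, 3 were past 2-fold: Col6a1 at 1047 CPM in AKT1.MYC and 335 CPM in NRAS.MYC.ND, Col6a2 at 641 CPM in AKT1.MYC and 178 CPM in NRAS.MYC.ND, and Col6a3 at 1017 CPM in AKT1.MYC and 482 CPM in NRAS.MYC.ND.

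Among the fibril-associated collagens, which sit on the fibril surface, Col12a1 was at 241 CPM in AKT1.MYC and 37.6 CPM in NRAS.MYC.ND (log2 2.68), and Col16a1 at 96.1 CPM in AKT1.MYC and 44.5 CPM in NRAS.MYC.ND (log2 1.11). Col14a1, the chain of undulin, went the other way with 278 CPM (262 to 295) in AKT1.MYC and 1487 CPM (1351 to 1634) in NRAS.MYC.ND, a log2 ratio of -2.42 (-2.58 to -2.26). Col6a5 was at 10.7 CPM in AKT1.MYC and 75.2 CPM in NRAS.MYC.ND (log2 -2.81), in contrast to the chains Col6a1, Col6a2 and Col6a3. Col18a1, the precursor of the vessel inhibitor endostatin, was at 71.2 CPM in AKT1.MYC and 161 CPM in NRAS.MYC.ND (log2 -1.17). With equal weight per cell, or thinned to 1 depth, the log2 ratio of Col18a1 was 0.09. The remaining called genes were low: Col4a4 at 20.4 CPM in AKT1.MYC and 41.0 CPM in NRAS.MYC.ND, and Col28a1 with 10 UMIs in AKT1.MYC, against 2 in NRAS.MYC.ND, at a log2 ratio of -1.46 (-3.69 to 1.77). The 7 measured collagens without a call were Col8a1, Col4a5, Col4a3, Col4a6, Col8a2, Col23a1 and Col27a1, the last at 34.6 CPM in AKT1.MYC and 37.6 CPM in NRAS.MYC.ND. Of these, Col4a6 had 54 UMIs in AKT1.MYC, against 0 in NRAS.MYC.ND, so only a lower bound of 1.31-fold can be given.

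**Figure D3:**
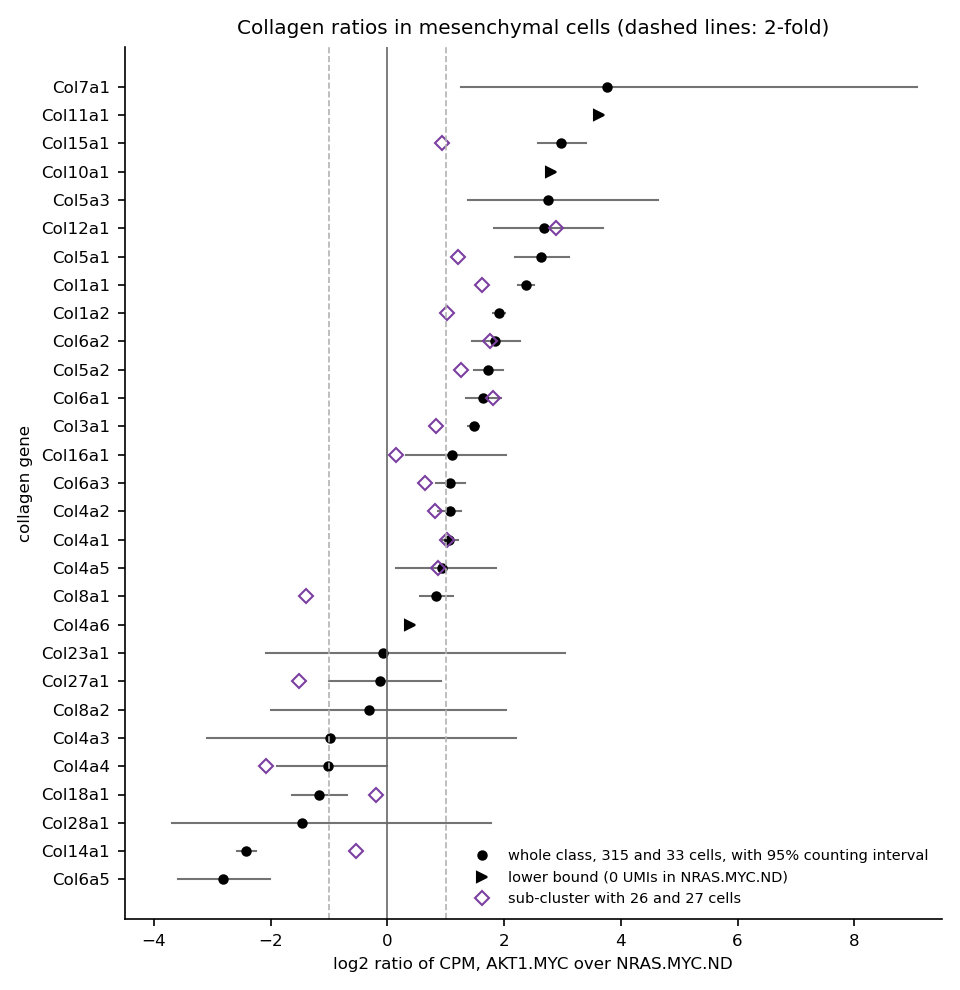
Each row is 1 of the 29 collagens with at least 10 UMIs in mesenchymal cells and the horizontal axis gives the log2 ratio of CPM, AKT1.MYC over NRAS.MYC.ND; black points carry 95% counting intervals, arrowheads are lower bounds, and open diamonds give the ratio in the sub-cluster with 26 AKT1.MYC and 27 NRAS.MYC.ND cells. Col1a1 lies at 2.37 in the whole class and 1.62 in the sub-cluster, and Col14a1 at -2.42 in the whole class and -0.54 in the sub-cluster.

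The mesenchymal cells of the models differ in makeup. Of 7 sub-clusters, 1 held 27 of the 33 NRAS.MYC.ND cells with 26 AKT1.MYC cells. It carried 10 of 10 stellate markers 2-fold above the other kept cells, while the other 6 sub-clusters carried 8 or 9. Against the other mesenchymal cells, 7 stellate markers were 2-fold up in it, and 0 or 1 in the others. Its leading genes also included Ccl5, Trbc2, Cd3e and Serpina1a, of other cell types. Ccl5 was at 14.9 CPM in its AKT1.MYC and 1992 CPM in its NRAS.MYC.ND cells. The part of such RNA in the grouping was not tested. In that sub-cluster summed collagen was 25535 CPM in AKT1.MYC and 13482 CPM in NRAS.MYC.ND (log2 0.92), and 9 collagens were at least 2-fold higher in AKT1.MYC, beside 9.16% of 6296 genes, against 4 in NRAS.MYC.ND, beside 14.3% of genes. Col1a1 was at 4853 CPM in AKT1.MYC and 1584 CPM in NRAS.MYC.ND, and Col11a1 at 201 CPM in AKT1.MYC, against 0 in NRAS.MYC.ND. Col15a1, called over the whole class, was below 2-fold there, at 179 CPM in AKT1.MYC and 93.7 CPM in NRAS.MYC.ND (log2 0.93, 0.17 to 1.73). Col3a1 (log2 0.84), Col4a2 (log2 0.82), Col6a3 (log2 0.64) and Col16a1 (log2 0.15), also called over the whole class, were below 2-fold too. Col14a1 was at 1149 CPM in AKT1.MYC and 1673 CPM in NRAS.MYC.ND, less than 2-fold apart, and Col8a1 at 141 CPM in AKT1.MYC and 370 CPM in NRAS.MYC.ND, the opposite order to the whole class. In the AKT1.MYC cells of the other 6 sub-clusters, Col14a1 ranged from 76.7 to 428 CPM and Col8a1 from 269 to 1355 CPM.

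Markers of other cells were present in the mesenchymal cells of both libraries, and the lists did not all lie on the same side. The 12 duct markers summed to 1118 CPM in AKT1.MYC and 352 CPM in NRAS.MYC.ND mesenchymal cells. The 12 macrophage or monocyte markers summed to 1786 CPM in AKT1.MYC and 968 CPM in NRAS.MYC.ND. The 12 neutrophil markers summed to 638 CPM in AKT1.MYC and 315 CPM in NRAS.MYC.ND. Hepatocyte, vascular endothelial and T cell markers were higher in NRAS.MYC.ND. The 14 hepatocyte markers (all detected in both) summed to 747 CPM in AKT1.MYC and 4845 CPM in NRAS.MYC.ND mesenchymal cells, and the 13 vascular endothelial markers (all detected in both) to 371 CPM in AKT1.MYC and 2393 CPM in NRAS.MYC.ND. The 12 T cell markers summed to 11.9 CPM in AKT1.MYC, where Cd8b1 and Cd5 were at 0, and to 591 CPM in NRAS.MYC.ND, where Cd4 was at 0. In the shared sub-cluster the T cell markers summed to 7.44 CPM in AKT1.MYC, where 2 of 12 were detected, and to 724 CPM in NRAS.MYC.ND. The 12 fibroblast markers themselves summed to 6042 CPM in AKT1.MYC and 12130 CPM in NRAS.MYC.ND, the opposite order to most collagens. The part of these RNAs in the collagen ratios was not tested. With the free RNA profile of the T, NK and innate lymphoid cells subtracted, the log2 ratio of summed collagen in mesenchymal cells was 1.53.

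Per-cell marker gates gave the same order within each mesenchymal type, with few NRAS.MYC.ND cells. Fibroblast-gated cells had 41288 CPM collagen in 197 AKT1.MYC cells and 17067 CPM in 12 NRAS.MYC.ND cells. Stellate-gated cells had 38037 CPM in 120 AKT1.MYC cells and 9291 CPM in 25 NRAS.MYC.ND cells, and pericyte-gated cells 30734 CPM in 54 AKT1.MYC cells and 8760 CPM in 4 NRAS.MYC.ND cells. Col18a1 was highest of these gates in pericyte-gated cells, at 427 CPM in AKT1.MYC and 334 CPM in NRAS.MYC.ND. Col14a1 stayed more than 2-fold higher in NRAS.MYC.ND in 2 gates. It was at 367 CPM in AKT1.MYC and 1635 CPM in NRAS.MYC.ND stellate-gated cells, and at 159 CPM in AKT1.MYC and 727 CPM in NRAS.MYC.ND fibroblast-gated cells. Pericyte-gated cells had 363 CPM in AKT1.MYC and 442 CPM in NRAS.MYC.ND. Smooth muscle-gated cells had 381 CPM in AKT1.MYC and 222 CPM in 4 NRAS.MYC.ND cells. Col6a5 was at 17.4 CPM in AKT1.MYC and 202 CPM in NRAS.MYC.ND fibroblast-gated cells, and at 0 in pericyte-gated and smooth muscle-gated cells of both libraries.

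Genes that build and bind collagen were read from lists, described by counts without a test and set beside the 9.18% of all genes that were higher in AKT1.MYC mesenchymal cells and the 16.3% that were higher in NRAS.MYC.ND. Of 21 measured genes for intracellular folding and modification of procollagen, 7 were at least 2-fold higher in AKT1.MYC mesenchymal cells and 0 in NRAS.MYC.ND, with a median log2 ratio of 0.63. Fkbp10, an endoplasmic reticulum prolyl isomerase for procollagen, stood at 204 CPM in AKT1.MYC and 51.3 CPM in NRAS.MYC.ND, and Plod3, a lysyl hydroxylase, at 75.9 CPM in AKT1.MYC and 23.9 CPM in NRAS.MYC.ND. None of the 6 secretion genes was called. Of 9 genes for propeptide removal and crosslinking, 3 were higher in AKT1.MYC but 0 in NRAS.MYC.ND. Lox, the oxidase that starts crosslinking, stood at 494 CPM in AKT1.MYC and 78.6 CPM in NRAS.MYC.ND (log2 2.65, 2.06 to 3.31), and Bmp1, which removes the C-propeptide, at 369 CPM in AKT1.MYC and 126 CPM in NRAS.MYC.ND.

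Receptors and matrix partners were split. Of 10 collagen receptors, 3 were higher in each library. Among them Itga1, an integrin chain for collagen, was at 299 CPM in AKT1.MYC and 961 CPM in NRAS.MYC.ND, Ddr2, a kinase activated by fibrillar collagen, at 45.3 CPM in AKT1.MYC and 130 CPM in NRAS.MYC.ND, and Mrc2, an endocytic collagen receptor, at 259 CPM in AKT1.MYC and 95.7 CPM in NRAS.MYC.ND. Of 13 fibril partners, 3 were higher in AKT1.MYC, against 4 in NRAS.MYC.ND. Tnxb, a tenascin of connective tissue, was at 11.2 CPM in AKT1.MYC and 185 CPM in NRAS.MYC.ND (log2 -4.04, -4.65 to -3.45), and the small leucine-rich protein Prelp at 296 CPM in AKT1.MYC and 1378 CPM in NRAS.MYC.ND. Sparcl1, a matricellular relative of SPARC, was at 979 CPM in AKT1.MYC and 284 CPM in NRAS.MYC.ND. Of 14 basement membrane partners, 2 were higher in AKT1.MYC, against 1 in NRAS.MYC.ND, with perlecan (Hspg2) at 283 CPM in AKT1.MYC and 95.7 CPM in NRAS.MYC.ND.

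Vascular endothelial cells carried mainly type IV collagen. Summed collagen was 4647 CPM (4572 to 4723) in 434 AKT1.MYC cells and 4039 CPM (3973 to 4104) in 443 NRAS.MYC.ND cells, a log2 ratio of 0.20 (0.17 to 0.24), of which the type IV chains made up 79.7% in AKT1.MYC, against 87.6% in NRAS.MYC.ND. Of 18 collagens with enough UMIs, 8 were at least 2-fold higher in AKT1.MYC, against 10.4% of 13142 genes, and 2 in NRAS.MYC.ND, against 10.8% of genes. Col4a1 was at 2184 CPM in AKT1.MYC and 2271 CPM in NRAS.MYC.ND, and Col4a2 at 1516 CPM in AKT1.MYC and 1264 CPM in NRAS.MYC.ND, both less than 2-fold apart. Col18a1 was at 461 CPM (438 to 486) in AKT1.MYC and 123 CPM (112 to 135) in NRAS.MYC.ND, a log2 ratio of 1.90 (1.75 to 2.06).

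The other called vascular collagens higher in AKT1.MYC were Col1a1, Col1a2, Col3a1, Col5a1, Col6a1, Col16a1 and Col27a1. Col3a1 was at 116 CPM in AKT1.MYC vascular cells, beside 152 CPM in AKT1.MYC T, NK and innate lymphoid cells, and at 6.88 CPM in NRAS.MYC.ND vascular cells, beside 4.63 CPM in NRAS.MYC.ND T, NK and innate lymphoid cells. Col1a2 was at 66.5 CPM in AKT1.MYC vascular cells, beside 80.6 CPM in the T, NK and innate lymphoid cells of that library. Both AKT1.MYC levels lie below those of the T, NK and innate lymphoid cells, and the part of free RNA in the calls was not tested. With the free RNA profile of those cells subtracted, 5 collagens were higher in AKT1.MYC, beside 18.8% of all genes under the same subtraction, against 8 in NRAS.MYC.ND, beside 17.4%. Thinned to 1000 UMIs per cell, 13.1% of AKT1.MYC vascular cells had a Col3a1 UMI, below the 19.2% of T, NK and innate lymphoid cells. Col4a1 in contrast was seen in 74.6% of thinned AKT1.MYC and 79.4% of NRAS.MYC.ND vascular cells, against 5.60% of AKT1.MYC and 1.36% of NRAS.MYC.ND T, NK and innate lymphoid cells.

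The vascular class is not made of the same clusters in the 2 libraries. Of its cells, cluster 11, led by Nts, Vwf and Apln, held 433 from AKT1.MYC and 117 from NRAS.MYC.ND, and cluster 18, led by Ly6c1, Plvap and Meox1, held 1 from AKT1.MYC and 326 from NRAS.MYC.ND. Within cluster 11 the type IV chains were more than 2-fold higher in AKT1.MYC: Col4a1 was at 2183 CPM in AKT1.MYC and 1006 CPM in NRAS.MYC.ND (log2 1.12, 0.99 to 1.25), and Col4a2 at 1516 CPM in AKT1.MYC and 552 CPM in NRAS.MYC.ND (log2 1.46, 1.28 to 1.64). Col18a1 stayed on the same side with 461 CPM in AKT1.MYC and 209 CPM in NRAS.MYC.ND. Col15a1 changed sides: in the whole class it was at 54.0 CPM in AKT1.MYC and 176 CPM in NRAS.MYC.ND (log2 -1.70), and in cluster 11 at 54.1 CPM in AKT1.MYC and 20.3 CPM in NRAS.MYC.ND (log2 1.41). Cluster 18 cells of NRAS.MYC.ND held Col15a1 at 201 CPM.

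Col5a2, Col8a1, Col6a3 and Col14a1 were higher in the NRAS.MYC.ND cells of cluster 11. Col5a2 was at 56.9 CPM in AKT1.MYC and 337 CPM in NRAS.MYC.ND (log2 -2.56, -2.88 to -2.25), and Col8a1 at 16.6 CPM in AKT1.MYC and 120 CPM in NRAS.MYC.ND (log2 -2.85). Over all vascular cells Col8a1 was at 16.6 CPM in AKT1.MYC and 37.4 CPM in NRAS.MYC.ND, a log2 ratio of -1.17 (-1.66 to -0.70). Col5a2 was at 56.9 CPM in AKT1.MYC and 77.9 CPM in NRAS.MYC.ND over all vascular cells, a log2 ratio of -0.45 that ranged from -2.56 to 0.91 over the alternatives. In cluster 11 Col6a3 was at 13.4 CPM in AKT1.MYC and 58.8 CPM in NRAS.MYC.ND (log2 -2.13, -2.85 to -1.40), and Col14a1 at 8.00 CPM in AKT1.MYC and 28.4 CPM in NRAS.MYC.ND (log2 -1.83, -2.83 to -0.77). Col1a2 had 208 UMIs (66.5 CPM) in AKT1.MYC, against 0 in NRAS.MYC.ND cells of that cluster. The 10 sinusoidal endothelial markers summed to 1441 CPM in AKT1.MYC and 3027 CPM in NRAS.MYC.ND cells of cluster 11, and the 14 hepatocyte markers to 626 CPM in AKT1.MYC and 3246 CPM in NRAS.MYC.ND. The 12 fibroblast markers summed to 111 CPM in AKT1.MYC, with 11 detected, and 136 CPM in NRAS.MYC.ND, with 4 detected, and the 10 stellate markers to 1703 CPM in AKT1.MYC and 548 CPM in NRAS.MYC.ND. The 12 duct markers summed to 1337 CPM in AKT1.MYC and 69.0 CPM in NRAS.MYC.ND cells of cluster 11. The 12 macrophage or monocyte markers summed to 2125 CPM in AKT1.MYC and 1000 CPM in NRAS.MYC.ND. The part of these RNAs in the difference was not tested.

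**Figure D4:**
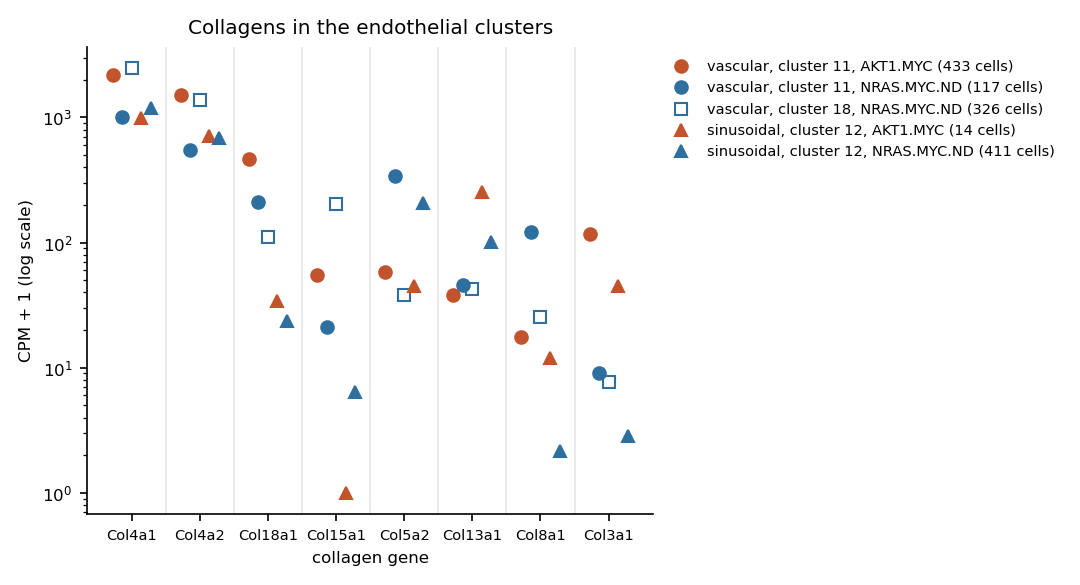
CPM + 1 on a log axis for 8 collagens in 3 endothelial clusters; orange marks AKT1.MYC and blue NRAS.MYC.ND, circles cluster 11, open squares cluster 18 and triangles the sinusoidal cluster 12. Col4a1 reads 2183 CPM in AKT1.MYC and 1006 CPM in NRAS.MYC.ND cells of cluster 11, and Col5a2 reads 56.9 CPM in AKT1.MYC and 337 CPM in NRAS.MYC.ND.

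Sinusoidal endothelial cells line the hepatic capillaries and lack a continuous basement membrane in healthy liver. They were 14 AKT1.MYC and 411 NRAS.MYC.ND cells, so values are given side by side without a call. Summed collagen was 2288 CPM (1988 to 2620) in AKT1.MYC and 2224 CPM (2180 to 2270) in NRAS.MYC.ND. Col4a1 was at 985 CPM in AKT1.MYC and 1184 CPM in NRAS.MYC.ND, and Col4a2 at 712 CPM in AKT1.MYC and 682 CPM in NRAS.MYC.ND. Col13a1, a transmembrane collagen, was at 252 CPM (160 to 378) in AKT1.MYC and 101 CPM (91.6 to 111) in NRAS.MYC.ND, and at 36.8 CPM in AKT1.MYC and 42.1 CPM in NRAS.MYC.ND vascular cells. It had 0 UMIs in mesenchymal cells of both libraries, and its highest level in a non-endothelial class with 50 or more cells of the library was 1.45 CPM, in the unnamed cells of AKT1.MYC.

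The pair of Col3a1 and Col5a2 had another ratio in the endothelial cells of NRAS.MYC.ND than in mesenchymal cells. The 2 genes lie tail to tail on chromosome 1, 24614 bases apart, with Col3a1 at 45311538 to 45349706 and Col5a2 at 45374321 to 45503282. In NRAS.MYC.ND sinusoidal cells Col5a2 had 876 UMIs (205 CPM) and Col3a1 had 8 (1.87 CPM), so Col3a1 made up 0.905% (0.392 to 1.78) of the pair. In vascular cells the share was 67.2% (63.0 to 71.1) in AKT1.MYC, against 8.12% (5.32 to 11.7) in NRAS.MYC.ND. In AKT1.MYC vascular cells Col3a1 lay below the 152 CPM of T, NK and innate lymphoid cells of that library. Those of NRAS.MYC.ND had 4.63 CPM. The part of free RNA in the vascular shares was not tested, so their difference is not read as endothelial expression. Mesenchymal cells had 86.3% in AKT1.MYC, against 88.2% in NRAS.MYC.ND. In AKT1.MYC the share lay between 82.9% and 87.0% in T, NK and innate lymphoid cells, hepatocytes, duct cells, mononuclear phagocytes, conventional dendritic cells and neutrophils. In NRAS.MYC.ND the share was 58.5% (42.1 to 73.7) in T, NK and innate lymphoid cells, 61.1% (48.9 to 72.4) in mononuclear phagocytes, 51.9% (31.9 to 71.3) in hepatocytes and 33.3% (9.92 to 65.1) in conventional dendritic cells, so in that library it also lay below the mesenchymal share outside the endothelium.

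Col4a1 and Col4a2 kept a narrow ratio in the classes named here, and the part of their shared promoter region in it was not tested. Col4a1 made up 61.8% of the pair in AKT1.MYC, against 61.9% in NRAS.MYC.ND mesenchymal cells, and 59.0% of it in AKT1.MYC, against 64.3% in NRAS.MYC.ND vascular cells. In duct cells it made up 65.2% in AKT1.MYC, against 66.9% in NRAS.MYC.ND, and in hepatocytes 66.9% in AKT1.MYC, against 68.8% in NRAS.MYC.ND. The vascular shares differ by more than counting error (58.1 to 59.9 in AKT1.MYC, 63.4 to 65.1 in NRAS.MYC.ND). The head-to-head pair Col4a3 and Col4a4, 71 bases apart on chromosome 1, was rare and less even, with Col4a3 at 37.5% of 112 UMIs in AKT1.MYC duct cells and 14.6% of 96 UMIs in AKT1.MYC mesenchymal cells. Col6a1 and Col6a2 lie on the same strand of chromosome 10, 85161 bases apart. Col6a1 made up 62.0% of that pair in AKT1.MYC, against 65.3% in NRAS.MYC.ND mesenchymal cells. In AKT1.MYC it made up 63.1% in duct cells and 70.3% in mononuclear phagocytes.

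**Figure D5:**
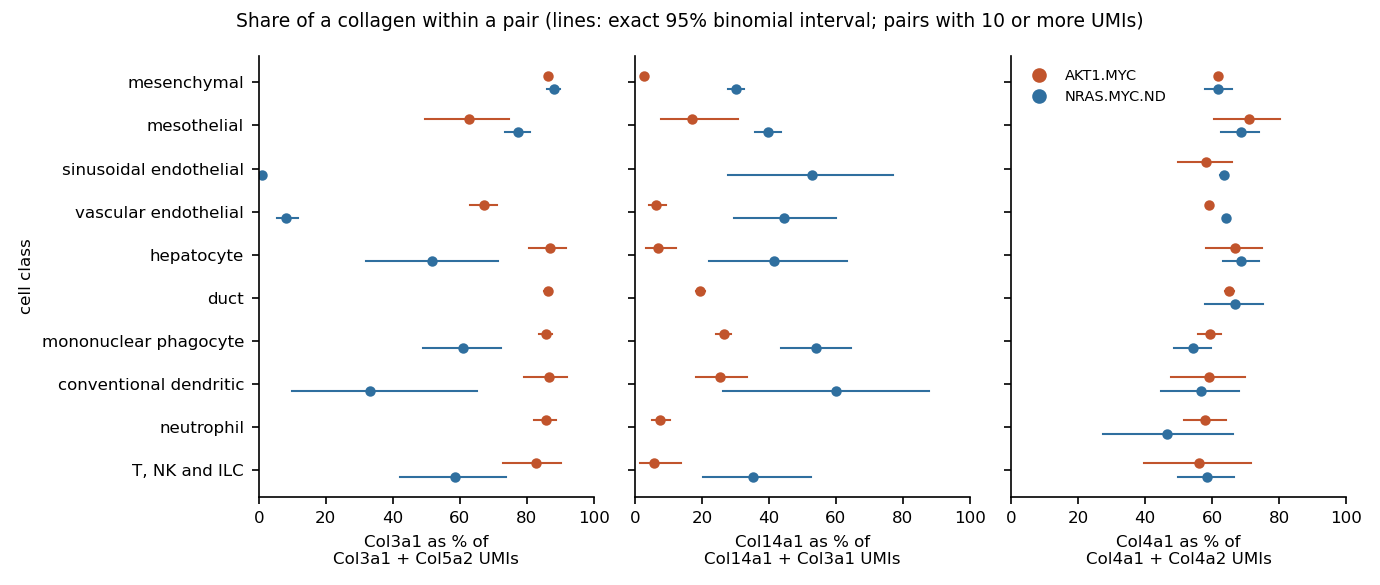
Share of the first gene in the summed UMIs of a pair (horizontal axis, percent) by cell class (vertical axis), with exact 95% binomial intervals, AKT1.MYC above NRAS.MYC.ND in each class. Col3a1 makes up 0.905% of the pair with Col5a2 in NRAS.MYC.ND sinusoidal cells and 88.2% in NRAS.MYC.ND mesenchymal cells, while Col4a1 lies between 46.4% and 71.1% of the pair with Col4a2 in the 10 classes drawn.

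Mesothelial cells, which cover the liver surface, were 4 in AKT1.MYC, against 32 in NRAS.MYC.ND, and held 0.147% of the collagen UMIs of AKT1.MYC, against 8.15% of those of NRAS.MYC.ND. Summed collagen was 7204 CPM in AKT1.MYC and 5656 CPM in NRAS.MYC.ND. Of type VI collagen, Col6a1 was at 1571 CPM in AKT1.MYC and 1155 CPM (1061 to 1254) in NRAS.MYC.ND, Col6a2 at 516 CPM in AKT1.MYC and 719 CPM (645 to 798) in NRAS.MYC.ND, and Col6a3 at 44.9 CPM with 2 UMIs in AKT1.MYC and 14.3 CPM with 7 UMIs in NRAS.MYC.ND. In NRAS.MYC.ND mesothelial cells Col1a2 was at 1026 CPM and Col1a1 at 287 CPM, so that Col1a1 made up 21.8% (18.7 to 25.2) of the type I pair, below the interval of 37.2 to 42.9% in NRAS.MYC.ND mesenchymal cells. Col16a1 (98.3 CPM) and Col4a4 (51.2 CPM) had their highest level of NRAS.MYC.ND there, and Col4a5 was at 83.9 CPM.

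In hepatocytes, Col18a1 was the collagen farthest above the free RNA of both libraries. Summed collagen was 670 CPM (621 to 723) in 176 AKT1.MYC cells and 231 CPM (218 to 244) in 375 NRAS.MYC.ND cells, a log2 ratio of 1.54. The AKT1.MYC level lay below the 857 CPM of AKT1.MYC neutrophils. Of 17 collagens with enough UMIs, 11 were at least 2-fold higher in AKT1.MYC, against 11.5% of 12862 genes, and 0 in NRAS.MYC.ND, against 12.7% of genes. Col18a1 was at 122 CPM (101 to 145) in AKT1.MYC and 119 CPM (110 to 129) in NRAS.MYC.ND, a log2 ratio of 0.03 (-0.26 to 0.31). Col3a1, at 133 CPM in AKT1.MYC and 2.71 CPM in NRAS.MYC.ND, lay below the T, NK and innate lymphoid level of both libraries, and a log2 ratio of summed collagen of 0.34 was left once free RNA was subtracted. Then 3 collagens were higher in AKT1.MYC, beside 23.0% of genes under the same subtraction, against 1 in NRAS.MYC.ND, beside 13.4%. Col4a1 was at 88.1 CPM in AKT1.MYC and 39.8 CPM in NRAS.MYC.ND, beside 51.5 CPM in AKT1.MYC and 16.0 CPM in NRAS.MYC.ND T, NK and innate lymphoid cells. Its log2 ratio was 1.15, and -0.53 under per-cell gates. Cluster 8 held 174 AKT1.MYC and 250 NRAS.MYC.ND hepatocytes, and there Col18a1 was at 123 CPM in AKT1.MYC and 134 CPM in NRAS.MYC.ND. The hepatocyte class was not alike in the 2 libraries. Its 14 hepatocyte markers summed to 30956 CPM in AKT1.MYC and 70288 CPM in NRAS.MYC.ND. The 12 duct markers summed to 8912 CPM in AKT1.MYC and 4492 CPM in NRAS.MYC.ND hepatocytes. The part of this makeup in the collagen ratios was not tested.

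Duct-marker cells, which carry cholangiocyte genes, numbered 1861 in AKT1.MYC, against 47 in NRAS.MYC.ND, below the 50 cells set for a comparison, and their comparison was likewise added. Their 12 duct markers summed to 13806 CPM in AKT1.MYC and 9025 CPM in NRAS.MYC.ND. The 14 hepatocyte markers summed to 3934 CPM in AKT1.MYC and 5939 CPM in NRAS.MYC.ND, and the 8 erythroid markers to 102 and 1983 CPM. The part of this makeup in the collagen ratios was not tested. Summed collagen was 519 CPM (511 to 526) in AKT1.MYC and 450 CPM (402 to 501) in NRAS.MYC.ND, a log2 ratio of 0.21 (0.05 to 0.37), which was -1.29 with free RNA subtracted. Of 30 collagens with enough UMIs, 10 were at least 2-fold higher in AKT1.MYC, against 6.1% of 16517 genes, and 10 in NRAS.MYC.ND, against 19.8% of genes. Relative to the median log2 ratio of the genes seen in both libraries, which was -0.32, the counts were 12 higher in AKT1.MYC, beside 10.4% of genes, and 8 higher in NRAS.MYC.ND, beside 13.7%. The median log2 ratio of the 30 was -0.23, beside -0.30 over all genes of the class. The 10 higher in AKT1.MYC were Col1a1, Col1a2, Col3a1, Col5a1, Col5a2, Col6a1, Col6a2, Col8a1, Col14a1 and Col15a1. In AKT1.MYC, Col3a1 was at 78.8 CPM in duct cells, beside 152 CPM in T, NK and innate lymphoid cells. Col1a2 was at 52.9 CPM, beside 80.6 CPM. Col5a2, Col6a1, Col6a2, Col8a1 and Col15a1 also lay below the level of those cells. Col1a1 (52.0 CPM, beside 47.0 CPM), Col5a1 (8.84 CPM, beside 6.72 CPM) and Col14a1 (19.1 CPM, beside 8.96 CPM) lay above it. The part of free RNA in these calls was not tested. With free RNA subtracted 1 collagen was higher in AKT1.MYC, beside 10.3% of genes under the same subtraction, against 15 in NRAS.MYC.ND, beside 26.3%. Duct cells were deeper, with a median of 11003 UMIs in AKT1.MYC, against 11975 in NRAS.MYC.ND. The T, NK and innate lymphoid cells behind the free RNA profile had 2802 UMIs in AKT1.MYC, against 2795 in NRAS.MYC.ND. The part of this depth difference in the subtracted ratio and counts was not tested, so no conclusion is drawn from them.

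The duct collagens higher in NRAS.MYC.ND were of another kind. Col9a3, a fibril-associated chain best known from cartilage, was at 4.17 CPM (3.50 to 4.93) in AKT1.MYC and 31.7 CPM (20.1 to 47.6) in NRAS.MYC.ND, and Col16a1 at 6.46 CPM in AKT1.MYC and 41.4 CPM in NRAS.MYC.ND (log2 -2.68, -3.23 to -2.08). Col27a1, a fibrillar chain, was at 6.58 CPM in AKT1.MYC and 27.6 CPM in NRAS.MYC.ND, and Col4a5 at 9.66 CPM in AKT1.MYC and 30.3 CPM in NRAS.MYC.ND (log2 -1.65, -2.27 to -0.96). Col4a3, Col4a4, Col4a6, Col5a3, Col20a1 and Col23a1 had 1 to 7 UMIs in NRAS.MYC.ND. Within cluster 9, with 232 AKT1.MYC and 36 NRAS.MYC.ND cells, Col4a5 was at 20.6 CPM in AKT1.MYC and 35.4 CPM in NRAS.MYC.ND, less than 2-fold apart, Col9a3 at 12.9 CPM in AKT1.MYC and 37.1 CPM in NRAS.MYC.ND, and 9 collagens were higher in AKT1.MYC, beside 7.44% of the 11711 genes measured there, against 3 in NRAS.MYC.ND, beside 10.3%. Col4a1 (90.5 CPM in AKT1.MYC, 114 CPM in NRAS.MYC.ND) and Col18a1 (66.6 CPM in AKT1.MYC, 95.1 CPM in NRAS.MYC.ND) were less than 2-fold apart.

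The same lists were read in the other compared classes, beside the shares of all genes given for each class (in vascular endothelial cells 10.4% higher in AKT1.MYC, against 10.8% in NRAS.MYC.ND). In vascular endothelial cells 5 of 21 folding genes, 4 of 7 crosslinking genes, 3 of 7 receptors, 3 of 13 basement membrane partners and 3 of 10 fibril partners were higher in AKT1.MYC, and 1 of 6 secretion genes and 1 each of the receptors and both partner lists in NRAS.MYC.ND. Among the 4 crosslinking genes, Lox was at 5.12 CPM in AKT1.MYC vascular cells, beside 8.96 CPM in the T, NK and innate lymphoid cells of that library, Loxl1 at 4.48 CPM beside 15.7 CPM there, and Adamts2 at 5.12 CPM beside 4.48 CPM there. Loxl2, a lysyl oxidase relative, was at 44.4 CPM in AKT1.MYC and 7.98 CPM in NRAS.MYC.ND vascular cells. Loxl2 was at 2.24 CPM in AKT1.MYC T, NK and innate lymphoid cells, and these 4 genes were named after their values were seen. Fkbp10 was at 110 CPM in AKT1.MYC and 38.0 CPM in NRAS.MYC.ND vascular cells, and Lamb1, a laminin chain, at 182 CPM in AKT1.MYC and 69.4 CPM in NRAS.MYC.ND. Itga1 was at 153 CPM in AKT1.MYC and 338 CPM in NRAS.MYC.ND vascular cells, the same side as in mesenchymal cells, while Sparcl1, at 146 CPM in AKT1.MYC and 397 CPM in NRAS.MYC.ND, lay on the other side.

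In hepatocytes, where 11.5% of all genes were higher in AKT1.MYC, against 12.7% in NRAS.MYC.ND, 4 of 18 folding genes, 2 of 6 crosslinking genes, 1 of 6 receptors, 1 of 9 basement membrane partners and 4 of 6 fibril partners were higher in AKT1.MYC, and 1 receptor and 1 basement membrane partner in NRAS.MYC.ND. Nid1, which links laminin to type IV collagen, was at 44.6 CPM in AKT1.MYC and 115 CPM in NRAS.MYC.ND hepatocytes. Bgn, a fibril-binding proteoglycan, was at 112 CPM in AKT1.MYC hepatocytes, beside 91.8 CPM in the T, NK and innate lymphoid cells of that library. In duct cells, where 6.1% of all genes were higher in AKT1.MYC, against 19.8% in NRAS.MYC.ND, 4 of 22 folding genes were higher in AKT1.MYC, against 5 in NRAS.MYC.ND, and among 10 crosslinking genes and 12 fibril partners 1 of each list lay on each side. Of 9 receptors 0 were higher in AKT1.MYC, against 2 in NRAS.MYC.ND, and of 16 basement membrane partners 1 was higher in AKT1.MYC, against 4 in NRAS.MYC.ND. Serpinh1, the collagen chaperone HSP47, was at 30.4 CPM in AKT1.MYC and 93.8 CPM in NRAS.MYC.ND duct cells, and Lamc3, a laminin chain, at 8.41 CPM in AKT1.MYC and 52.4 CPM in NRAS.MYC.ND. No secretion gene was past 2-fold in hepatocytes or duct cells.

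The ratio of Col14a1 to Col3a1 was not the same in all immune classes of AKT1.MYC. Col14a1 was at 47.1 CPM (42.7 to 51.8) in AKT1.MYC and 4.18 CPM (3.12 to 5.48) in NRAS.MYC.ND mononuclear phagocytes, beside 8.96 CPM (2.44 to 22.9) in AKT1.MYC and 2.51 CPM in NRAS.MYC.ND T, NK and innate lymphoid cells. Conventional dendritic cells of AKT1.MYC had 25.4 CPM and duct cells 19.1 CPM. Of the summed Col14a1 and Col3a1 UMIs in AKT1.MYC, Col14a1 made up 26.5% (24.3 to 28.7) in mononuclear phagocytes, 25.4% in dendritic cells and 19.5% in duct cells, against 5.56% (1.53 to 13.6) in T, NK and innate lymphoid cells, 6.94% in hepatocytes and 2.82% (2.66 to 2.99) in mesenchymal cells. Thinned to 1000 UMIs, 4.48% (3.61 to 5.49) of AKT1.MYC mononuclear phagocytes had a Col14a1 UMI, against 1.60% (0.194 to 5.66) of T, NK and innate lymphoid cells; without thinning the shares were 13.6% of mononuclear phagocytes at a median of 2172 UMIs and 2.90% of T, NK and innate lymphoid cells at 2802 UMIs. These thinned intervals overlap, while the pair shares do not.

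The remaining members were low everywhere. Col11a2, Col4a3, Col4a6, Col6a6, Col8a2, Col9a1, Col9a2, Col17a1, Col20a1, Col22a1, Col23a1 and Col28a1 had 11 to 153 UMIs over both libraries and did not reach 50 CPM with 30 UMIs in any class of either. Col27a1 (719 UMIs), Col7a1 (288 UMIs) and Col9a3 (189 UMIs) also stayed below that level.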

How the data were processed

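Tumour cells of 2 mouse models were profiled with 10x 3′ single-cell libraries, 1 per model. The deposited matrices hold unnormalised UMI counts for each gene in each barcode, made by the authors with Cell Ranger (6.1.1 per the file headers, 6.1.2 per the submitters' processing notes) on mm10, with barcodes already restricted to cells. They were used without rescaling. The labels name v2 chemistry.

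Barcodes were kept from 500 UMIs and 250 genes upwards and up to a mitochondrial share of 20%. Scrublet marked 0 cells at its own threshold, so the highest-scoring cells were removed at the expected rate of 0.8% per 1000 barcodes (912 AKT1.MYC and 327 NRAS.MYC.ND). Cells were clustered jointly in scanpy 1.11.5 (2000 variable genes without collagens, 30 components, 15 neighbours, Leiden resolution 1.0). Clusters were named from at least 4 listed markers that were 2-fold up in 10% of cells or more; the rest stayed unnamed. UMIs were summed per class and library, and a class needed 50 cells in each library. With 1 library per model no test was run, and intervals (95%) cover counting error only. A value of 0 was given a limit of 3 counts. Calls, counting code and intervals were checked on simulated counts that held Poisson counting error only. That check covers the code and says nothing about variation between cells, animals or libraries. Alternatives covered cell filters, clustering, gates, scaling, weights, thinning and free RNA. The effect of a class's depth on the free RNA subtraction was not tested.

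The collagens, marker lists and pathway lists were chosen with earlier results of these data known. Described in full are collagens with at least 50 CPM in a class of 1 library and 30 UMIs; genes of the pathway lists are named past 2-fold, with the same minimums and up to 4 per list and class in order of the ratio. Counts are 3′ tags, so levels are not compared between genes of different length as molecules. The reads were not analysed here.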

Additional observations from a re-analysis of the deposited data

How the results depend on the processing

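Of 40 ratios of single collagens in a class, 31 were at 2-fold or more, 26 of these kept their direction under every alternative run for them, and 16 stayed at 2-fold or more. The following are the summary values that moved by more than their counting interval, or by more than 1.5 times for a count, and the ratios at 2-fold or more that turned. Of the 9 single ratios under 2-fold, 7 turned under at least 1 alternative: Col8a1 in mesenchymal cells, Col4a1 and Col5a2 in vascular endothelial cells, Col18a1 in hepatocytes, and Col4a1, Col4a2 and Col18a1 in duct cells. The cause was not tested, except where the alternative itself uses fewer cells. Shares of all genes past 2-fold, given above, cover median of ratios scaling, free RNA subtraction, duct cluster 9 and the shared mesenchymal sub-cluster. No such share was taken under the other alternatives. Counts of collagens there show only how the calls moved, and cannot be set against all genes. With a mitochondrial limit of 10%, the collagens called higher in NRAS.MYC.ND numbered 1 in vascular endothelial cells, and the share of AKT1.MYC collagen UMIs was 74.3% in mesenchymal cells. With at least 1000 UMIs per cell, the log2 ratio of summed collagen was 1.41 in mesenchymal cells, 0.16 in vascular endothelial cells and 1.81 in hepatocyte cells, and the collagens called higher in NRAS.MYC.ND numbered 1 in vascular endothelial cells. The share of AKT1.MYC collagen UMIs was 80.1% in mesenchymal cells and 6.88% in endothelial cells. With no doublets removed, the log2 ratio of summed collagen was 1.65 in mesenchymal cells, 0.24 in vascular endothelial cells and 1.28 in hepatocyte cells, and the share of NRAS.MYC.ND collagen UMIs was 11.3% in mesenchymal cells and 68.8% in endothelial cells. At a cluster resolution of 0.5, the log2 ratio of summed collagen was 1.41 in mesenchymal cells and 0.63 in vascular endothelial cells, and the share of AKT1.MYC collagen UMIs was 79.4% in mesenchymal cells and 6.54% in endothelial cells. With each library clustered alone, the log2 ratio of summed collagen was 1.68 in mesenchymal cells, 0.0763 in vascular endothelial cells and 0.63 in duct cells, and the collagens called higher in NRAS.MYC.ND numbered 3 in mesenchymal cells, 1 in vascular endothelial cells and 2 in duct cells. The share of AKT1.MYC collagen UMIs was 73.3% in mesenchymal cells, and the share of NRAS.MYC.ND collagen UMIs was 12.2% in mesenchymal cells and 66% in endothelial cells. With collagen genes among those clustered, the collagens called higher in AKT1.MYC numbered 4 in duct cells, and the collagens called higher in NRAS.MYC.ND numbered 1 in vascular endothelial cells, 1 in hepatocyte cells and 6 in duct cells. The share of AKT1.MYC collagen UMIs was 74.7% in mesenchymal cells. Under per-cell marker gates, the log2 ratio of summed collagen was 1.81 in mesenchymal cells, 0.45 in vascular endothelial cells, 0.83 in hepatocyte cells and 0.96 in duct cells, and the collagens called higher in AKT1.MYC numbered 6 in hepatocyte cells. The collagens called higher in NRAS.MYC.ND numbered 2 in mesenchymal cells and 0 in duct cells, and the share of AKT1.MYC collagen UMIs was 69.4% in mesenchymal cells and 5.98% in endothelial cells. The share of NRAS.MYC.ND collagen UMIs was 13.7% in mesenchymal cells and 17% in endothelial cells, and the log2 ratio turned to -0.53 for Col4a1 in hepatocyte cells. Under median of ratios scaling, the log2 ratio of summed collagen was 1.72 in mesenchymal cells, 0.28 in vascular endothelial cells and 0.52 in duct cells, and the collagens called higher in NRAS.MYC.ND numbered 3 in mesenchymal cells. With equal weight per cell, the log2 ratio of summed collagen was 1.71 in mesenchymal cells, 0.26 in vascular endothelial cells, 2.34 in hepatocyte cells and 0.92 in duct cells, and the collagens called higher in NRAS.MYC.ND numbered 3 in mesenchymal cells, 1 in vascular endothelial cells, 2 in hepatocyte cells and 6 in duct cells. The log2 ratio turned to 0.0857 for Col18a1 in mesenchymal cells. Thinned to 1 depth per class, the log2 ratio of summed collagen was 0.25 in vascular endothelial cells, 2.10 in hepatocyte cells and 1.12 in duct cells, and the collagens called higher in AKT1.MYC numbered 4 in vascular endothelial cells, 5 in hepatocyte cells and 2 in duct cells. The collagens called higher in NRAS.MYC.ND numbered 1 in mesenchymal cells, 0 in vascular endothelial cells and 4 in duct cells, and the log2 ratio turned to 0.0914 for Col18a1 in mesenchymal cells. With free RNA subtracted, the log2 ratio of summed collagen was 0.0827 in vascular endothelial cells, 0.34 in hepatocyte cells and -1.29 in duct cells, and the collagens called higher in AKT1.MYC numbered 5 in vascular endothelial cells, 3 in hepatocyte cells and 1 in duct cells. The collagens called higher in NRAS.MYC.ND numbered 8 in vascular endothelial cells and 1 in hepatocyte cells, and the share of AKT1.MYC collagen UMIs was 81.3% in mesenchymal cells and 6.9% in endothelial cells. The share of NRAS.MYC.ND collagen UMIs was 12.4% in mesenchymal cells and 74.5% in endothelial cells, and the log2 ratio turned to -1.23 for Col3a1 in vascular endothelial cells and -4.32 for Col1a2 in duct cells. With at least 30 UMIs per collagen and class, the collagens called higher in AKT1.MYC numbered 7 in hepatocyte cells. In the clusters with 20 or more cells of each library, the log2 ratio of summed collagen was 0.95 in vascular endothelial cells and 0.61 in duct cells, and the collagens called higher in NRAS.MYC.ND numbered 4 in vascular endothelial cells and 3 in duct cells. The log2 ratio turned to 1.41 for Col15a1 in vascular endothelial cells. In the shared mesenchymal sub-cluster, the log2 ratio of summed collagen was 0.92 in mesenchymal cells, and the collagens called higher in AKT1.MYC numbered 9 in mesenchymal cells. With the unnamed collagen-rich cluster added to the mesenchymal cells, the log2 ratio of summed collagen was 1.45 in mesenchymal cells, and the share of AKT1.MYC collagen UMIs was 79.5% in mesenchymal cells. The last 3 alternatives, and the comparison of classes with 30 to 49 cells in a library, were chosen after seeing the data. No paired analysis was possible because each model has 1 library. No library can be left out for the same reason. Depth limits collagens with few UMIs: in NRAS.MYC.ND mesenchymal cells 0 UMIs allow up to 10.3 CPM, and in NRAS.MYC.ND duct cells up to 4.14 CPM.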
